A study of Mus musculus with 6 samples.

Results

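Short retained introns are introns below 200 nt that the deposited splicing table lists both as spliced out and as kept in messenger RNA. An intron was taken when its length, the distance between the exon upstream and the exon downstream, was below 200 nt and when it had a mean of 20 or more reads per library over 6 libraries. The rule found 1198 introns in 880 genes, of 2956 retained introns with that many reads and of 3326 in the whole table. Of the short introns, 1372 were listed before the read minimum was applied. Retention levels and differences between libraries were not used to choose them.

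The study sequenced messenger RNA of small intestinal crypt cells from C57BL/6 mice aged 60 days. WT samples (n = 3) carried the alleles Ptbp1f/f without Cre, and PTBP1_KO samples (n = 3) were Ptbp1f/f;Vil-creER+/-, in which villin sequence drives a tamoxifen-dependent Cre in intestinal epithelium. All 6 received Tamoxifen (100 mg/kg) on each of 2 days and were collected 20 h after injection 2. The labels do not say that samples of 1 group came from separate mice, so p-values measure only the spread between these samples, which may be technical.

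In the splicing table the reads stand in a first and a second set of 3 libraries, and the headers name no genotype for either set. Reads over the 107 nt intron of Ptbp1, the deleted gene, numbered 122, 317 and 216 in the first set and 1593, 1771 and 1819 in the second. All 3 libraries of the first set were lower. Genotype was not assigned to the sets from measured values, so the 6 libraries are given as library 1 to 3 of each set and differences are given by set. The reads over the short introns summed to between 1004605 and 1277712 per library. In the gene table, which does name the groups, Ptbp1 was listed at 230.0 FPKM (fragments per kilobase of transcript, scaled to library size) in WT and 122.8 FPKM in PTBP1_KO, and the authors' deposited table gave q = 0.0125. The 6 epithelial markers summed to 3636 FPKM in WT and 3944 FPKM in PTBP1_KO. In WT and PTBP1_KO the 4 crypt stem and proliferating markers summed to 713 and 665 FPKM. The 4 villus enterocyte markers summed to 4310 and 4544 FPKM. None of either list was called, and Sis of the villus list was not tested. The 3 Paneth cell markers summed to 2476 FPKM in WT and 4173 FPKM in PTBP1_KO, of which the authors' deposited table called Mmp7, and the 3 tuft cell markers to 34.0 and 23.6 FPKM, with none called. The 9 immune markers summed to 96.4 FPKM in WT and 170 FPKM in PTBP1_KO, and none was below 1 FPKM in both groups. The authors' deposited table called Gzma, Gzmb and Cd8a of these higher in PTBP1_KO. Immune cells do not express the villin-driven Cre. The part of these differences in the values below was not tested. Of 6 stromal, muscle and endothelial markers, 5 were below 1 FPKM in both groups.

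An intron is removed by the spliceosome between a donor site, usually GT, and an acceptor site, usually AG, with a pyrimidine-rich tract before the acceptor. Mammalian introns that are short and GC-rich tend to be recognised as a unit across the intron, and they are frequent among introns that remain in polyadenylated RNA. A retained intron can hold the RNA in the nucleus, expose a stop codon to nonsense-mediated decay, or add codons to the protein. PTBP1 is an RNA-binding protein that prefers pyrimidine-rich RNA with motifs such as TCTT and CTCTCT, and it is known for repressing nearby splice sites.

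The sequences of 7 introns whose retention differed between the sets by the authors' test follow, because their splice sites are those the differences concern. They were read from GENCODE M21 transcripts (mm10) that hold the intron, 5′ to 3′ on the gene's strand. Capitals mark the first and the last 2 bases and every TCTT.
Tbc1d25 (chrX:8156505-8156650, minus strand, 146 nt): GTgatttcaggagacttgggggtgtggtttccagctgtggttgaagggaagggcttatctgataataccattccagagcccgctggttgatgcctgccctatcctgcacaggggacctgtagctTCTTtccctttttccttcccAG
Zswim8 (chr14:20719673-20719812, plus strand, 140 nt): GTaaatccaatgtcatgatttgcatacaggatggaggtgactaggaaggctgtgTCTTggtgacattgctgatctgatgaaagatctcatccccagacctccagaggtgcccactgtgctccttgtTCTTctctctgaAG
Ddx51 (chr5:110655414-110655564, plus strand, 151 nt): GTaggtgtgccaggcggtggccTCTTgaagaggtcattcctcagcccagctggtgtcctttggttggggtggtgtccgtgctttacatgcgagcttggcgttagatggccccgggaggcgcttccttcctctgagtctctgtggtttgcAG
Gpr137 (chr19:6940402-6940482, minus strand, 81 nt): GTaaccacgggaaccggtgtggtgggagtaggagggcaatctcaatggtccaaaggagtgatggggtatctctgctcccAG
Fbxw9 (chr8:85064497-85064580, plus strand, 84 nt): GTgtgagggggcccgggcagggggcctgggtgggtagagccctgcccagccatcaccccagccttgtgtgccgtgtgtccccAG
Rabggta (chr14:55719143-55719239, minus strand, 97 nt): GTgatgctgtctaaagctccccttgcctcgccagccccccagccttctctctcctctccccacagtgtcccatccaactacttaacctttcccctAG
Pcbp4 (chr9:106462253-106462361, plus strand, 109 nt): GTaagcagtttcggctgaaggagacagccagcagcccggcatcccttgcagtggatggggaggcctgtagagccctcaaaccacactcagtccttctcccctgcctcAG

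All 7 begin with GT and end with AG and lie between coding exons of an annotated spliced transcript. They are part of the 14 introns called below and not those with the largest differences throughout. The shared traits do not hold for every called intron: that of Blzf1 lies in a 5' untranslated region, and that of H2-T10 ends with CA. The Tbc1d25 intron holds TCTT in the run of pyrimidines before its acceptor, and Zswim8 holds it there with CTCTCT. The Gpr137, Fbxw9, Rabggta and Pcbp4 introns hold no TCTT, although Rabggta has a CTCTCT. Among the 118 short introns within 10 nt of the length of the Tbc1d25 intron, 59.3% hold TCTT somewhere, and among the 433 within 10 nt of the length of the Gpr137 intron 44.1% do. The Fbxw9 intron is 72.6% GC and the Zswim8 intron 47.9%.

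The retention level is the number of reads for the kept form per nt of its effective length, divided by the same sum over both forms, on a scale from 0 (always spliced) to 1 (always kept). Over the 6 libraries together, the median short intron had a retention level of 0.158, with quartiles of 0.0666 and 0.427. The level was below 0.1 for 426 introns and above 0.9 for 116. Library medians were 0.155, 0.163 and 0.152 in the first set and 0.156, 0.154 and 0.172 in the second. The sets overlapped in this median, and library 3 of the second set was the highest. Introns of 200 nt or more had a median of 0.217, with quartiles of 0.0634 and 0.799, and 345 of 1758 were above 0.9. Of these 345, 156 were among the 179 longer introns with no annotated spliced transcript. That class held only 8 short introns.

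The level of a single intron varied by less than 0.1 between libraries for 750 of the 1198 short introns. The median level itself was only 0.158, and 426 introns were below 0.1. The median range from the lowest to the highest library was 0.0736 for short introns, beside 0.0668 for longer ones. All 6 libraries were below 0.5 for 885 short introns and above 0.5 for 227, and 86 had libraries on both sides. A range of at least 0.3 was seen for 41. Of the 1198 introns, 59 had fewer than 20 reads in at least 1 library. Retention was lower for introns with more reads (Spearman's rho = -0.24 over 1198 introns, a description across introns that share libraries and, often, genes).

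Where an intron lies in its transcript went with how often it was kept. Between coding exons of a spliced protein-coding transcript, 1043 short introns had a median retention of 0.134, and library medians ranged from 0.125 to 0.145. In 5' untranslated regions 32 introns had a median of 0.917, with library medians from 0.866 to 0.906. In 3' untranslated regions 17 had a median of 0.744. For 98 introns the transcript that removes them is not annotated as protein-coding, and their median was 0.887. The ranges of library medians for coding and 5' untranslated introns did not meet. Introns of 200 nt or more had a median of 0.131 between coding exons (1321 introns) and 0.793 in 5' untranslated regions (47 introns), so short and longer introns lay close together between coding exons and further apart in 5' untranslated regions. The difference was not tested.

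**Figure D1:**
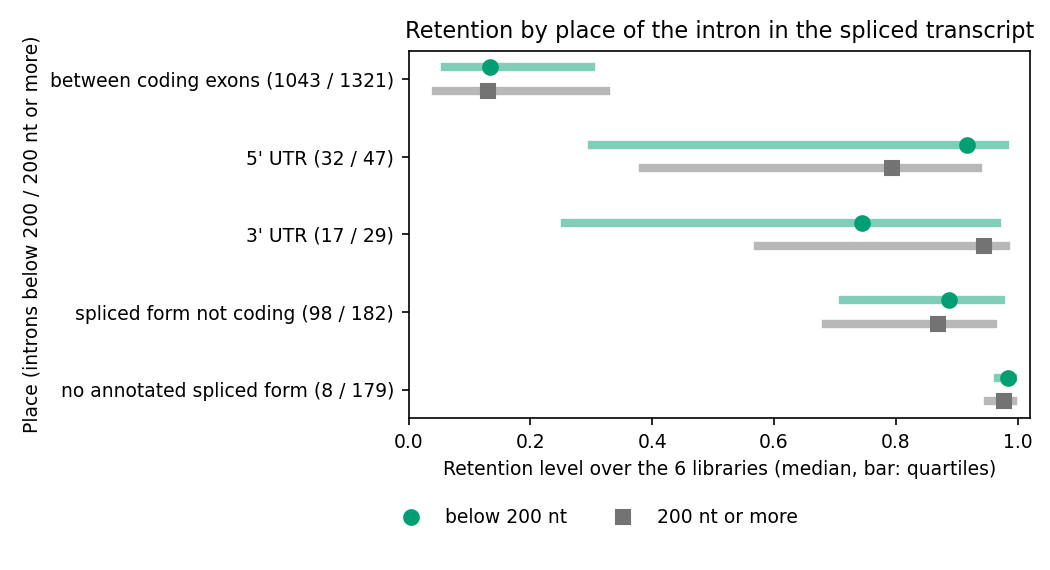
Median retention level over the 6 libraries (points) with quartiles (bars) for introns below 200 nt and for those of 200 nt or more, by place in the annotated spliced transcript. The y axis gives the number of introns of each length class, and short introns between coding exons sit at 0.134 while the other places sit at 0.744 or higher.

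Most short introns measured between 60 and 199 nt, and the median length was 99 nt. Introns of 60 to 79 nt (234) had a median retention of 0.167, those of 80 to 99 nt (357) 0.130, those of 100 to 119 nt (204) 0.193, those of 120 to 149 nt (169) 0.156 and those of 150 to 199 nt (221) 0.184. Library medians of the 80 to 99 nt class, 0.122 to 0.131, lay below those of the 60 to 79 nt class, 0.162 to 0.194. No steady trend with length was seen (Spearman's rho = 0.05 over 1198 introns).

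Below 60 nt stood 13 entries, whose ends set them apart from ordinary introns. Only 4 of these 13 had GT and AG ends. Tmem134, Nadk2, Lig1 and Ifi30 were listed with introns of 1 nt, at retention levels of 0.00406, 0.0157, 0.0664 and 0.00248. With an intron of 1 nt the kept and the spliced form differ by a single base. The shortest entry with GT and AG ends was 33 nt in Myo9b, an unconventional myosin, and it is shown for comparison, with the end bases in capitals.
Myo9b (chr8:71348902-71348934, plus strand, 33 nt): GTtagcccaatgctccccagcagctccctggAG
Its retention level over the libraries was 0.986, from 0.978 to 0.995. At the other limit of the rule, Slc7a6 and Celf3 had introns of 199 nt with levels of 0.968 and 0.129, and Taf1d one of 198 nt at 0.189. Introns of exactly 200 nt, just outside, were those of Prodh (0.212), Rnpepl1 (0.0789) and Trmt1 (0.964). At the read minimum, Fes (20.3 reads), Hps3 (20.5) and Hdac6 (20.8) were just inside, with retention levels of 0.0888, 0.0145 and 0.321. Baiap3 (19.8 reads), Slc44a2 (19.7) and Tgif2 (19.2) were just outside, with 0.170, 0.0425 and 0.881.

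A kept intron between coding exons changes the reading frame or is read through. Of the 1043 coding introns, 735 held a stop codon in frame, 282 held none, 1 differed between transcripts and for 25 the frame was not read. Median retention was 0.130 with a stop and 0.136 without. Both a length that is a multiple of 3 and an open frame were found for 103 introns, which can be kept without ending the protein. Their median was 0.225 and their quartiles were 0.0854 and 0.737. Introns with a length that is a multiple of 3 and a stop in frame (235) had a median of 0.130. Library medians of the open introns, 0.211 to 0.244, were above those of the introns with a stop, 0.119 to 0.143.

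Annotation as protein-coding split the open introns, and other retained introns as well. In 73 of the 103 a transcript that keeps the intron is annotated as protein-coding in GENCODE M21, and their median retention was 0.493. In the other 30 the keeping transcript has another annotation, and the median was 0.0983. Of all 1043 short introns between coding exons, 131 had a keeping transcript annotated as protein-coding. Their median was 0.383, against 0.125 for the other 912. Over all places, short introns had medians of 0.666 (212 introns) with such a transcript and 0.134 (981) with another annotation. Longer introns over all places had 0.804 (188) and 0.190 (1565). The contrast between open introns and those with a stop was not tested apart from this annotation. In 34 open introns all 6 libraries were above 0.5, and in 13 all were above 0.9. Actb, the cytoplasmic beta-actin gene, held an open intron of 150 nt with GC and AG ends at 0.988, from 0.987 to 0.990 over the libraries. At such a level the spliced form is the rare one.

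Sequence was available from a keeping transcript for 1193 of the 1198 short introns. GT and AG ends were found in 1170 (98.1%), beside 97.7% of longer introns, and GC and AG ends in 15. These 15 had a median retention of 0.619, against 0.157 for GT and AG ends. Median GC content was 56.3% in short introns and 49.0% in longer ones. The median share of pyrimidines in the 40 nt before the AG was 65% in each class. Across 1186 short introns, retention had a weak negative relation to that share (Spearman's rho = -0.13, and -0.11 between coding exons). In sparse reads a relation this weak is no more than a description.

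Motifs were searched on the transcribed strand in the 60 nt before the AG of every intron long enough, where TCTT and TTCT may overlap each other. TCTT was present in 39.5% of 1180 short introns and in 50.9% of 1753 longer ones. TTCT was present in 42.7% and 54.8%, and CTCTCT in 8.90% and 7.93%. A match is a description of these letters and not a binding site.

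The authors' test compared the first with the second set of libraries. An intron counts as called when the authors' FDR was below 0.05 and their absolute inclusion level difference, the first set's mean minus the second's, was at least 0.1. Of the 1198 short introns, 14 were called, which is 1.17%, beside 2.06% of all 2956 retained introns and 2.67% of the 1758 of 200 nt or more. The short introns were thus called no more often than retained introns in general. Of the 14 introns, 10 were kept more in the second set (0.835% of short introns, 0.88% of all) and 4 more in the first (0.334%, and 1.18% of all). Among longer introns 31 were kept more in the first set (1.76%) and 16 more in the second (0.91%). The difference between these splits was not tested.

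With the FDR alone, 70 short introns passed (5.84%, beside 7.14% of all), of which 53 were kept more in the second set (4.42%, beside 3.59% of all) and 17 more in the first (1.42%, beside 3.55% of all). An unadjusted p below 0.05 was listed for 225 short introns (18.8%, beside 19.6% of all). In 137 short introns (11.4%, beside 12.2% of all) the levels of the sets did not overlap, with the second set higher in 92 (7.68%, beside 6.39% of all) and the first in 45 (3.76%, beside 5.82% of all). Over all 1198, the listed difference was negative for 680 and positive for 476. Among all 2956 it was negative for 1516 and positive for 1342. Among the 1758 longer introns it was negative for 836 and positive for 866. The direction in all these counts is given by set.

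**Figure D2:**
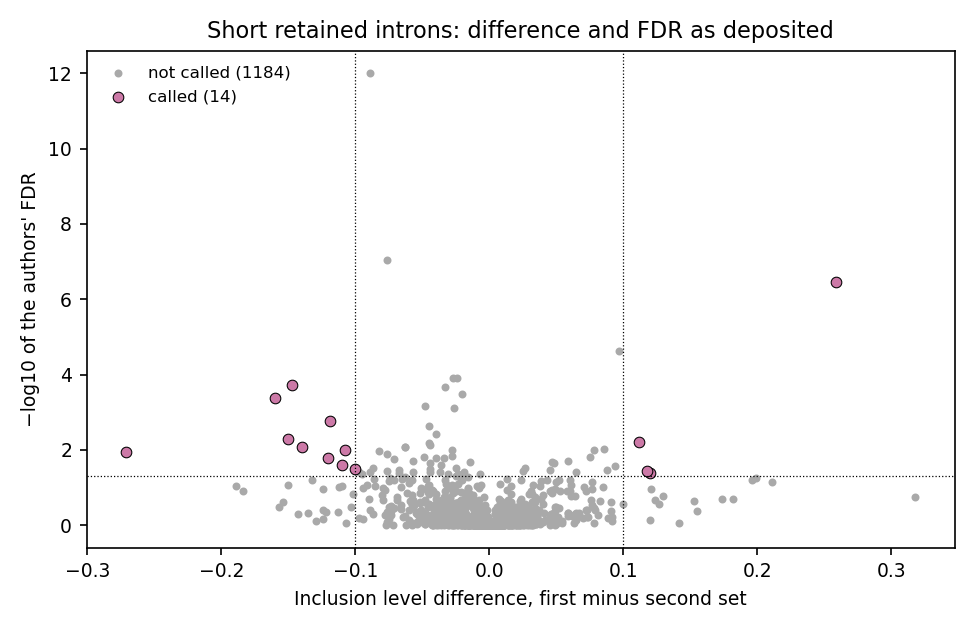
Inclusion level difference of the first minus the second set (x axis, 0 to 1 scale) against −log10 of the authors' FDR (y axis) for the 1198 short introns, 1 point per intron, with dotted lines at a difference of 0.1 either way and an FDR of 0.05. The 14 called introns include 10 on the left, and the single point at the top, H2-T3, is drawn at the upper limit because its FDR was listed at 0.

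Of the 14 called introns, 11 lay between coding exons and 8 held a stop codon in frame. They came from 13 genes. The sets did not overlap in 10 of the 14: the second set was higher in 9 and the first in 1. Over all short introns 11.4% did not overlap. The 14 were called for a difference between these same sets, so the separation is in part set by the call. The called introns had a median retention of 0.720, against 0.156 for the 1184 not called. Introns kept at very low levels can hardly reach the minimum difference of 0.1, so this contrast too is in part set by the call. It was not particular to short introns: longer called introns had a median of 0.619, beside 0.217 for all longer ones. Median coverage of the 14 called short introns was 100.3 reads per library, and the lowest library had 12 reads. CTCTCT stood in the 60 nt before the AG in 5 of the 13 called introns long enough, in 4 genes (Zswim8, Blzf1, Rabggta and Dennd6b), and in 8.57% of those not called. The 2 Dennd6b introns share this stretch. In the same 60 nt, TCTT stood in 53.8% of called introns and in 39.3% of those not called. TTCT stood in 53.8% and 42.6%. Among longer introns, CTCTCT stood there in 12.8% of the called, beside 7.93% of all. These differences in motif share were not tested.

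Among genes of membrane traffic and small GTPases, Tbc1d25 encodes a Rab GTPase-activating protein linked to autophagy. Its 146 nt intron had retention levels of 0.332, 0.332 and 0.370 in the first set and 0.728, 0.540 and 0.580 in the second. All 3 libraries of the second set were higher, and library 1 of that set rested on 32 reads (95% Wilson interval 0.516 to 0.871, which like all such intervals here covers counting error only). The authors' deposited table gave a difference of -0.271 with FDR = 0.0112. This was the largest difference among the called short introns, and the intron holds a stop codon in frame.

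Rabggta encodes the alpha subunit of the Rab prenylation enzyme, which attaches lipid anchors to Rab proteins. Its 97 nt intron stood at 0.656, 0.618 and 0.608 in the first set and at 0.727, 0.693 and 0.785 in the second, with 258 to 377 reads per library. The sets did not overlap, and the authors' deposited table listed -0.108 with FDR = 0.0102. Of the other 4 short introns of Rabggta, the one of 100 nt had -0.044 with FDR = 0.039 in the authors' deposited table and those of 84, 138 and 152 nt did not pass. These are introns of 1 gene and are not independent.

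Blzf1 encodes golgin-45, a protein of the Golgi stack. An 87 nt intron in its 5' untranslated region (chr1:164307355-164307441, minus strand) had levels of 0.789, 0.824 and 0.922 in the first set and 1, 1 and 0.955 in the second. All libraries of the second set were above the first, but library 2 of the second set had only 12 reads (95% Wilson interval 0.661 to 1). The authors' deposited table gave -0.140 with FDR = 0.00824. Rit1 encodes a Ras-related GTPase, and its 102 nt intron (chr3:88717471-88717572, plus strand) had 0.196, 0.185 and 0.319 in the first set against 0.226, 0.10 and 0.0198 in the second. The sets overlapped, because library 1 of the second set, with 12 reads, exceeded 2 libraries of the first (95% Wilson interval 0.0858 to 0.477). The authors' deposited table gave 0.118 with FDR = 0.0359. The Rit1 intron shares its donor with one of 131 nt, which was kept at 0.0398 and did not pass the test.

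Among genes of RNA metabolism and protein turnover, Zswim8 encodes a substrate receptor of a cullin ubiquitin ligase known for microRNA turnover. Its 140 nt intron had 0.189, 0.277 and 0.291 in the first set and 0.422, 0.387 and 0.429 in the second. The sets did not overlap at 141 to 201 reads per library. The authors' deposited table listed -0.160 with FDR = 0.000418. Other short introns of Zswim8, of 78 and 102 nt, were kept at 0.0718 and 0.896 and did not pass, so the difference was not seen along the whole transcript.

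Ddx51 encodes an RNA helicase of ribosome production. Its 151 nt intron had levels of 0.201, 0.147 and 0.175 in the first set and 0.342, 0.365 and 0.266 in the second, all higher. The authors' deposited table gave -0.150 with FDR = 0.00519. Fbxw9 encodes an F-box protein with WD repeats, a class that selects substrates for ubiquitin ligases. Its 84 nt intron stood at 0.744, 0.718 and 0.65 in the first set and at 0.859, 0.758 and 0.824 in the second. The sets were separated by only a small gap, between 0.744 and 0.758. The authors' deposited table gave -0.110 with FDR = 0.0256.

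Pcbp4 encodes a KH-domain protein that binds poly(C) stretches in RNA. Its 109 nt intron was the 1 called intron in which the first set lay wholly above the second, at 0.140, 0.0917 and 0.183 against 0, 0.0206 and 0.0586. Library 1 of the second set had no read for the kept form among 29, which allows a level of up to 0.0616 at 3 counts. The authors' deposited table listed 0.112 with FDR = 0.00610. The intron holds no stop codon in frame, but 109 is not a multiple of 3.

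**Figure D3:**
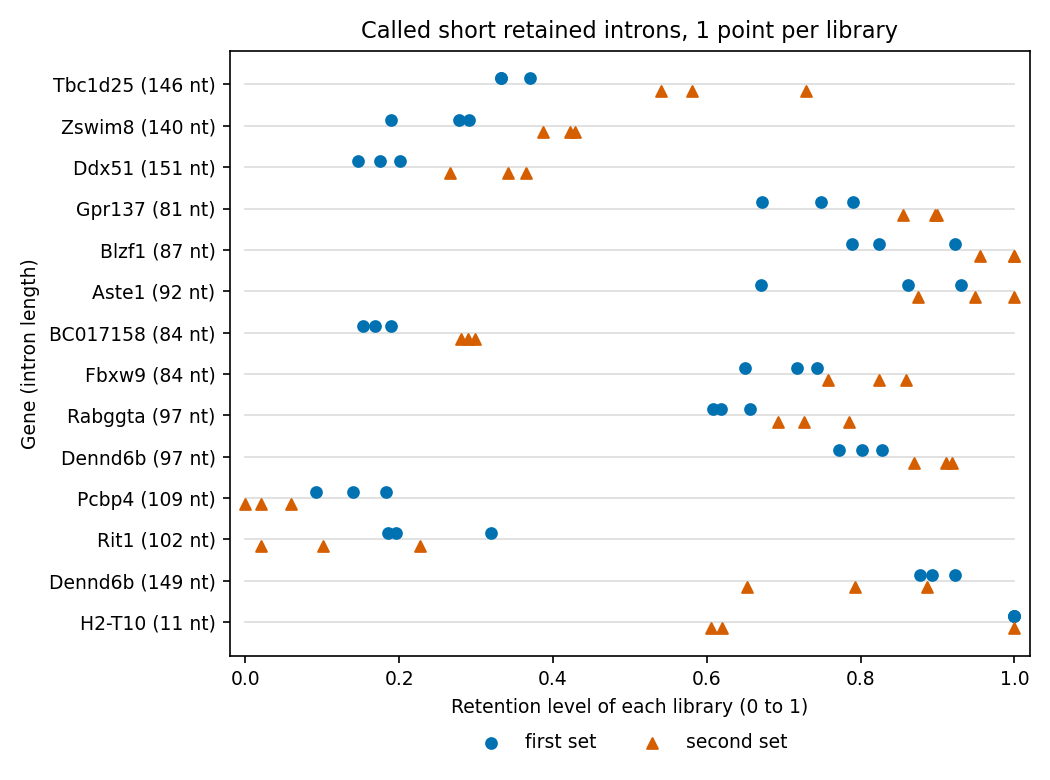
Retention level (x axis, 0 to 1) of the 14 called short introns in each of the 6 libraries, with circles for the first set and triangles for the second, ordered by the authors' difference. In the upper 10 introns the second set has the higher mean, from Tbc1d25 (0.540 to 0.728 in the second set) down to the 97 nt intron of Dennd6b, and in the lower 4 the first set does, while the sets overlap in Aste1, Rit1, H2-T10 and the 149 nt intron of Dennd6b.

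Gpr137 encodes a lysosomal membrane protein with several membrane spans. Its 81 nt intron had levels of 0.748, 0.790 and 0.672 in the first set and 0.896, 0.856 and 0.90 in the second, and every library of the second set was higher at 122 to 286 reads. The authors' deposited table gave -0.147 with FDR = 0.000193. This was the called intron with an open frame and a length that is a multiple of 3: when kept it adds 27 codons, and keeping forms are annotated as protein-coding and as a target of nonsense-mediated decay. A longer Gpr137 intron of 226 nt was kept at 0.0447 and did not pass.

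The 84 nt intron of BC017158 (chr7:128276144-128276227, minus strand) had 0.153, 0.169 and 0.189 in the first set and 0.280, 0.298 and 0.289 in the second, with no overlap. The authors' deposited table gave -0.119 with FDR = 0.00172, while another short intron of this gene, of 82 nt, had a level of 0.165 and did not pass. Aste1 encodes a protein of a nuclease-like family. Its 92 nt intron (chr9:105396706-105396797, plus strand) had 0.670, 0.931 and 0.862 in the first set against 1, 0.875 and 0.948 in the second. The sets overlapped, and the authors' deposited table gave -0.120 with FDR = 0.0167. This intron shares its donor with one of 919 nt, which was kept at 0.963 and had a difference of the opposite sign, 0.079 with FDR = 0.0280 in the authors' deposited table.

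H2-T10, a non-classical MHC class I gene, held the largest positive difference among the called short introns, 0.259 with FDR = 3.40e-07 in the authors' deposited table. The entry is 11 nt long (chr17:36120291-36120301, minus strand), begins with GT and ends with CA. Its level was 1 in all 3 libraries of the first set and in library 2 of the second, and 0.605 and 0.619 in libraries 1 and 3 of the second set. In those 2 libraries 20 of 53 and 16 of 44 reads joined the exons without the 11 nt, and in the other 4 libraries none did. Without these libraries every value is 1.

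H2-T3, a related gene near it on the chromosome, showed the same pair of libraries. Its 179 nt intron (chr17:36189871-36190049, minus strand) was kept at 0.109 and 0.172 in libraries 1 and 3 of the second set and at 0.00594 to 0.00778 in the other 4. The authors' deposited table listed -0.089 with an FDR of 0, which passed the FDR but not the minimum difference. H2-T genes have close copies that can share reads, so these values are uncertain. H2-T3 lies outside the naming rule and was picked with its values in view.

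The 2 called Dennd6b introns point in opposite directions. Dennd6b encodes a DENN-domain protein, a class of exchange factors for Rab GTPases. Both introns start at the same donor, at position 89187147 of chromosome 15 on the minus strand, and end at acceptors 52 nt apart. The longer intron is shown with its donor, the near acceptor and the far acceptor in capitals.
Dennd6b (chr15:89186999-89187147, minus strand, 149 nt): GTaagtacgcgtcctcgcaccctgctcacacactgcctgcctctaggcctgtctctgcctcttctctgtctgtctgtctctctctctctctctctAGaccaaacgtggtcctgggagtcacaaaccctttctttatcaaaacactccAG
A run of alternating C and T stands directly before the near acceptor, where 90% of the 40 nt before the AG are pyrimidines. Before the far acceptor 60% are.

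The 97 nt intron of Dennd6b had retention levels of 0.801, 0.828 and 0.771 in the first set and 0.919, 0.869 and 0.912 in the second. The authors' deposited table gave -0.10 with FDR = 0.0319. The 149 nt intron had 0.877, 0.923 and 0.893 in the first set against 0.793, 0.652 and 0.887 in the second. Its sets overlapped, and the authors' deposited table listed 0.120 with FDR = 0.0417. The difference of the 97 nt intron lay exactly on the minimum of 0.1.

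Counted directly, the near junction had 20, 18 and 20 reads in the first set and 4, 7 and 7 in the second. The far junction had 13, 8 and 10 reads in the first set and 14, 27 and 11 in the second. The near acceptor thus took 60.6%, 69.2% and 66.7% of the spliced reads in the first set and 22.2%, 20.6% and 38.9% in the second. These shares did not overlap between the sets. They rest on 18 to 34 junction reads per library and were computed after the opposite signs were seen. Within the same gene a retained intron of 326 nt (chr15:89186428-89186753) had a larger difference, -0.210 in the authors' deposited table, with levels of 0.209 to 0.289 in the first set and 0.412 to 0.495 in the second.

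**Figure D4:**
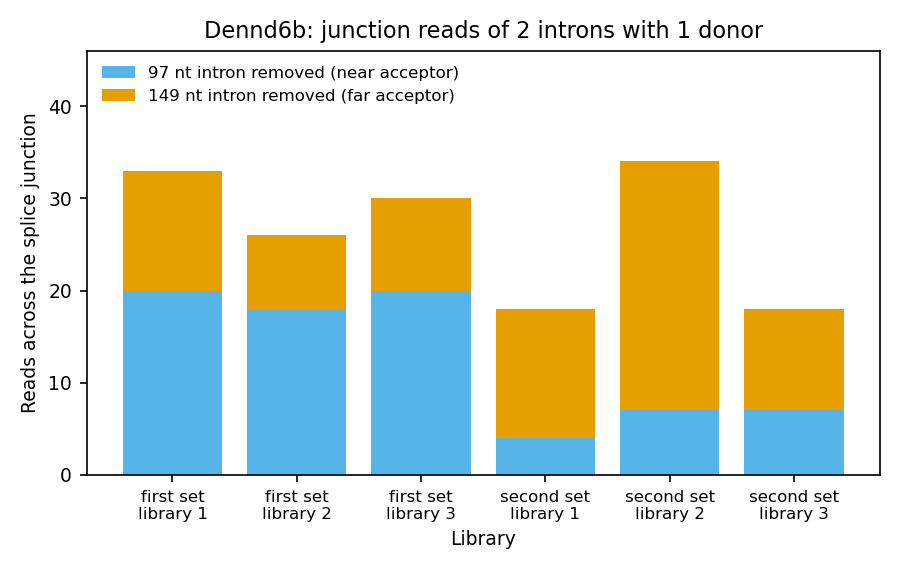
Reads across the splice junctions of the 97 nt and the 149 nt intron of Dennd6b (y axis, stacked counts) in each of the 6 libraries (x axis). The near junction holds 18 to 20 reads in the libraries of the first set and 4 to 7 in those of the second.

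Of introns that were not called, the highest retention was found for Cd74 (57 nt), Hspa8 (172 nt), Psme1 (119 nt), Ano9 (93 nt) and Rpl29 (96 nt), all at 0.999 or above. Cd74 encodes the invariant chain of MHC class II, and its entry has CT and AT ends. Hspa8 encodes a constitutive heat shock chaperone. The lowest were those of Aplp1 (0.00210), Ifi30 (0.00248), Dpp3 (0.00274), Rpl7 (0.00304) and Pxn (0.00360). Most reads were found for Eef1a1, a translation elongation factor, with 64106 reads per library and a level of 0.0596, from 0.0571 to 0.0644. Ppia, a peptidyl-prolyl isomerase, stood at 0.0518, and Actb was also among the introns with most reads. At this depth the libraries differed by less than 0.01 for each of these 3 genes.

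Short introns in genes of the splicing apparatus had levels that spread widely. Of 9 introns in 4 genes of the spliceosome and splice site recognition, 5 were in U2af1l4, a relative of the small subunit of the acceptor-binding factor U2AF. The U2af1l4 introns ranged from 0.0859 to 0.976. Luc7l3, a component of the U1 particle that binds donors, held a 105 nt intron with levels of 0.856, 0.888 and 0.868 in the first set and 0.844, 0.794 and 0.832 in the second. In the authors' deposited table it had a difference of 0.047 with FDR = 0.0206, below the minimum difference. The SR protein kinases Clk1 and Clk4, which phosphorylate splicing factors, had introns at 0.0352 and 0.0665, and neither passed.

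The 9 introns of hnRNPs and the PTB family had a median of 0.144, and only Pcbp4 was called. Ptbp1 itself held 3 short introns: 127 nt at 0.0189, 107 nt at 0.989 and 79 nt at 0.0260. Reads over the 127 nt intron numbered 59, 188 and 106 in the first set and 965, 1078 and 1120 in the second, and those over the 79 nt intron 55, 246 and 138 against 1281, 1340 and 1625. The first set was lower throughout, while retention levels of the sets overlapped for all 3 introns. Their differences in the authors' deposited table were 0.008, -0.007 and 0.002, and none passed the FDR. Hnrnpl, Hnrnpm and Hnrnph1 were kept at 0.260, 0.264 and 0.144, with differences of 0.003 or less in size in the authors' deposited table. In the decay and exon junction complex list, Rbm8a had 0.0209 and Smg5, with 42 nt, 0.992. The authors' deposited table gave Rbm8a a difference of -0.007 with FDR = 0.0442.

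Cytoplasmic ribosomal proteins, matched by symbol, held 20 introns in 17 genes, including Rps6kb1 and Rps6kb2, which encode kinases. Their median was 0.0272, below the 0.158 of all short introns. Of the 20, 13 were below 0.1 and 4 above 0.9, beside 426 and 116 of all 1198. Mitochondrial ribosomal proteins (8 introns) had a median of 0.0857, proteasome genes (15) 0.0645, RNA polymerase subunits (11) 0.0999 and the respiratory chain and ATP synthase (6) 0.107. None of these 5 lists held a called intron. An unadjusted p below 0.05 in the authors' deposited table was listed for 1, 3, 4, 1 and 1 of their introns in that order. Over all short introns 1.17% were called and 18.8% had such a p. Genes whose symbol begins with H2-, which include Oa and Ke6 that are not class I, held 10 introns with a median of 0.257 and 1 call, H2-T10. The p53 targets held 1 intron, that of Plk2, at 0.0262.

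Levels of the genes themselves are single FPKM values per group, with no spread. Of the 880 genes with a short intron, 878 were tested by the authors. At q < 0.05, 3 of these passed in the authors' deposited table (0.342%, beside 0.537% of all 15460 tested genes), all lower in PTBP1_KO. Of all tested genes 0.388% were called higher and 0.149% lower there. An unadjusted p below 0.05 was listed for 22 of the 878, 6 higher and 16 lower. The share of all tested genes with such a p is not given here, so this split has no background beside it. The 3 genes were Ptbp1, the deleted gene, Ager, a receptor for glycated proteins, and Siglecf, a sialic acid-binding receptor known from eosinophils. Ager went from 2.94 FPKM in WT to 1.19 FPKM and Siglecf from 5.78 to 3.03 FPKM in PTBP1_KO, each with q = 0.0125 in the authors' deposited table. Their introns were not called: those of Ager, of 195 and 89 nt, were kept at 0.977 and 0.962, and that of Siglecf, of 62 nt, at 0.286.

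None of the 13 genes with a called intron passed q < 0.05, and H2-T10 alone had an unadjusted p below 0.05 in the authors' deposited table. H2-T10 was listed at 3.32 FPKM in WT and 2.15 FPKM in PTBP1_KO. Tbc1d25 had 4.77 and 4.47 FPKM, Zswim8 24.5 and 20.9 FPKM, Gpr137 29.5 and 22.2 FPKM, and Pcbp4 5.07 and 6.77 FPKM. Genes with a short intron were more abundant than tested genes in general, with a median of 26.7 FPKM in WT against 7.70 FPKM. The authors' deposited table gave them a median log2 fold change of -0.02, beside 0.02 for all tested genes. In bulk RNA, fewer cells of a type and less RNA per cell cannot be told apart.

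Among genes that act in splicing, the authors' Cuffdiff q-values called 0 of 25 SR proteins and kinases, 0 of 48 spliceosome genes and 0 of 15 decay and exon junction genes. An unadjusted p below 0.05 was listed for 1, 0 and 1 of them. Of 35 hnRNP and PTB family genes 1 was lower, Ptbp1. No gene passed among 157 cytoplasmic ribosomal, 79 mitochondrial ribosomal, 105 respiratory chain, 29 RNA polymerase and 48 proteasome genes, of which 1, 1, 1, 0 and 0 had an unadjusted p below 0.05 in the authors' Cuffdiff table. The symbol match for the 157 also takes genes that are not ribosomal proteins, such as Rps6kb1, which encodes a kinase. Of 30 tested genes with H2- symbols 1 was lower, and of 20 p53 targets 5 were higher. An unadjusted p below 0.05 was listed there for 2 of the 35 hnRNP and PTB family genes, 5 of the 30 H2- genes and 9 of the 20 p53 targets. Over all tested genes 0.537% passed the q threshold, and their share with an unadjusted p below 0.05 is not given here.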

How the data were processed

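Polyadenylated RNA of 6 samples was sequenced with a stranded kit, per the labels' protocols. The submitters' processing notes name bcl2fastq 2.20, Trimmomatic 0.38, STAR 2.6.1d, Cufflinks, Cuffdiff and mm10. The version and settings of the MATS splicing tool are not given in the sources used here. The deposited retained intron table gives whole-number read counts for the kept and the spliced form in 6 libraries, the form lengths, a p-value, an FDR and an inclusion level difference, per the file headers. The deposited gene table gives 1 FPKM value per group, a log2 fold change, a p-value and a q-value by the authors, per the file headers.

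Groups came from the sample titles. The headers of the splicing table do not tie its library sets to them and sets were not assigned from measured values, so no test between genotypes was fitted, and the authors' FDR and q-values were used. Retention was recomputed from counts and form lengths, and differed from the authors' levels by at most 0.0005. The kept form's length was the intron plus 144 nt and the spliced form's 144 nt in every short intron. The calculation was checked on simulated data.

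Intron sequence and place came from GENCODE M21 transcripts and annotation. Frames were read in spliced protein-coding transcripts that begin with ATG. Named introns were all called ones, the 5 highest, 5 lowest and 5 with most reads, the 3 shortest and those at 200 nt. Members of the 11 gene lists that were not called, and H2-T3, were named with their values in view. Of the introns with most reads, 2 are not reported here. The introns and lists were chosen with earlier results of these data known. Scripts ran in Python 3.11.15 with pandas 2.3.3 and numpy 2.4.6, intervals came from scipy 1.17.1, and plots from matplotlib 3.10.9.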

Additional observations from a re-analysis of the deposited data

How the results depend on the processing

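No paired analysis was possible because the columns of the splicing table carry no sample or replicate number. The authors' test was not rerun without single libraries. From 14 called short introns, a mean of 50 reads left 9, a minimum difference of 0.2 left 2 and FDR < 0.01 left 7, while a minimum difference of 0.05 gave 38, no minimum 70 and a length below 250 nt 22. These settings admit or remove introns by construction. More introns were kept higher in the second set under each of these, except that a difference of 0.2 left 1 in each direction. Counts with a mean of 10 reads (17), 20 reads in every library (12), a length below 150 nt (13), same-ended introns counted once (14) and 2 settings chosen after the data were seen, 60 nt or more with GT or GC to AG ends (13) and introns sharing 1 end counted once (13), stayed within 1.5 times. The median retention of 0.158 was 0.248 when reads were not divided by form lengths and 0.147 with introns sharing 1 end counted once. Leaving out each library in turn gave 0.155 to 0.161. The count of 3 host genes was 4 at q < 0.1 and 3 with at least 1 FPKM. Depth also limits the called introns: 2 of 14 had a library under 20 reads and 5 had a mean under 50.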
